A study of Homo sapiens with 12 samples.

Results

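The replication-dependent histone genes were examined in RNA-seq libraries from 3 renal carcinoma cell lines in which miR-29 activity had been raised or lowered. The members were all protein-coding genes whose symbol starts with H2AC, H2BC, H3C or H4C followed by a number, together with H1-1 to H1-5. This rule gave 69 genes, of which 65 had counts among the 58051 genes of the deposited tables: 5 H1, 15 H2A, 19 H2B, 11 H3 and 15 H4 genes. H2AC18, H2AC19, H3C2 and H3C3 were not analysed here because their identifiers were not matched. The rule used names only and no measured value.

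Groups were as follows. 786-O cells and A-498 cells received a miR-29 mimic, a synthetic double-stranded RNA that supplies the miRNA, or a control mimic, with 1 library per group in 786-O and 2 per group in A-498. ACHN cells received a miR-29 inhibitor, an oligonucleotide that blocks the miRNA, or a control inhibitor, with 3 libraries per group. All are established human tumour lines, each transfected transiently at 10 nM and harvested at 48 h, so that control cells were transfected as well. The mimic was not given to ACHN and the inhibitor was not given to the other lines, and therefore agent and cell line cannot be told apart in any comparison of ACHN with A-498 or 786-O. The libraries were described as biological replicates, and 2 further A-498 libraries that the study set aside were not analysed here.

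Replication-dependent histone genes supply the H1 linker and the H2A, H2B, H3 and H4 core histones that package newly made DNA, and they are transcribed mainly in S phase. Their mRNAs are short, lack introns and end in a conserved stem-loop instead of a poly(A) tail. The stem-loop is bound by SLBP, the U7 snRNP guides cleavage of the precursor just downstream of it, and the mRNAs are degraded when DNA synthesis stops. Libraries that select poly(A) RNA miss most of these transcripts, whereas the present libraries were made from RNA depleted of rRNA.

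The stem-loop, which is what sets this family apart from other mRNAs, was found in the reference within 150 bases after the stop codon of 68 of 69 members, always with all 6 stem pairs intact. It began 22 to 67 bases after the stop codon. The search, for GG, a stem of 6 base pairs (G with T allowed) of which at least 5 form, a loop of 4 bases with T at its positions 1 and 3, and CC, found a match in 132 of 19964 other protein-coding genes (0.661%). The 68 stem-loops had 10 different sequences, and 40 members shared the commonest of them. The 4 examples below are from GRCh38, with the 16-base stem-loop in capitals. The examples begin with the commonest form in an H1 gene and the same form in a member whose only annotated transcript is long. After these come the form frequent in H4 genes and a form that differs in the loop.
H1-2, chr6:26055739-26055764, minus strand: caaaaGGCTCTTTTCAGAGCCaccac
H2BC21, chr1:149886183-149886208, minus strand: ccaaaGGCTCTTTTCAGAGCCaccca
H4C2, chr6:26026896-26026921, minus strand: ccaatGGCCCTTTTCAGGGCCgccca
H2BC12, chr6:27146361-27146386, minus strand: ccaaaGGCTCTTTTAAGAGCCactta

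H2BC12L on chromosome 21 was the member without a stem-loop. Most members (54 of 69) lie in the histone cluster of chromosome 6, 11 lie in a smaller cluster on the long arm of chromosome 1, and H4C16 lies on chromosome 12. H2AC25 (chr1:228434777-228457873, minus strand) and H2BC26 (chr1:228458103-228463104, plus strand) form a separate pair. Because the genes arose as copies, part of their sequence cannot be assigned to a single gene: 11 of 69 members shared over 50% of the 100-base windows of their transcript with another place in the genome. All windows were shared in H3C14, H3C15, H4C14, H4C15 and H2BC12L, as well as in H2AC18 and H2AC19, which had no counts. The share was 91.3% in H4C12, 90.7% in H4C11, 61.8% in H2AC14 and 58.8% in H2AC13. Counts of these members are uncertain, because reads that align equally well to several copies were not counted.

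The promoters of 63 members were matched to RefSeq (GRCh38.p14, 250 bases before to 50 bases after the start). The octamer ATTTGCAT, searched on both strands, was present in 14 of 18 H2B and 11 of 16 H2A promoters, in 1 of 11 H3 promoters and in no H1 or H4 promoter, against 1.77% of 35116 promoters of the same length. The H1 box AAACACA was present in 5 of 5 H1 promoters and 5.64% of all promoters, and CCAAT in all 50 H1, H2A, H2B and H3 promoters but in 3 of 13 H4 promoters, against 34.6% of all. H2A and H2B genes often stand head to head, and the same octamer may then fall in the windows of both partners. The 3 octamers below, in capitals, are those of H2B genes described further on.
H2BC21, chr1:149886712-149886737, minus strand: ggagccctaATTTGCATaaggtggtt
H2BC8, chr6:26216720-26216745, minus strand: gaattctttATTTGCATgaaaggcct
H2BC12, chr6:27146888-27146913, minus strand: cttcaccttATTTGCATgagaggtcc

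The mature miR-29 forms, read from RefSeq (GRCh38.p14), share their seed, nucleotides 2 to 8, given in capitals. They are shown because a matching site (TGGTGCT in DNA letters) is the usual basis of miR-29 targeting.
hsa-miR-29a-3p, chr7:130876748-130876769, minus strand: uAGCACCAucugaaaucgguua
hsa-miR-29b-3p, chr1:207802450-207802472, minus strand: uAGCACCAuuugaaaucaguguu
hsa-miR-29c-3p, chr1:207801865-207801886, minus strand: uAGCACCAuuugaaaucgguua

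A match to this seed was present in the annotated transcript of 2 of 69 members, H1-5 and H4C3. Among 19481 protein-coding genes 14.1% had a match after the stop codon, in stretches of all lengths. The members were searched over the whole transcript, coding part included, so the 2 shares cannot be compared directly. No match says only that these letters are not in the annotated transcript.

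Reads assigned to genes numbered 39919554 to 70027392 per library. Reads that were not assigned to a gene made up 37.2% to 48.0% of the total, and reads rejected for low alignment quality, which include those with several equally good positions, made up 16.7% to 25.8%. Genes known as direct miR-29 targets were used to check the labels: 9 of 10 were tested, and 9 of 9 were lower in A-498 with the mimic while 9 of 9 were higher in ACHN with the inhibitor. In 786-O 8 of 9 were lower with the mimic by at least 1.5-fold. Among 13 listed renal epithelial and carcinoma markers, PAX8 and the keratins KRT8 and KRT18 were present in every library (PAX8 from 69.0 to 643 counts per 1000000 gene counts, CPM). Others on this list were scarce. LRP2 and EMX2 did not exceed 0.172 CPM in any library, CDH6 did not exceed 0.325 CPM in ACHN, and CA9 did not exceed 0.315 CPM in 786-O or ACHN. The leukocyte and endothelial markers PTPRC, CD68, CD3E, CD79A, PECAM1, VWF and CDH5 did not exceed 0.325 CPM in any library, whereas ACTA2 reached 34.2 CPM and GFAP 7.05 CPM. The 11 markers of other cell types summed to 33.7 and 33.8 CPM in the controls and 30.2 and 30.5 CPM in the mimic libraries of A-498, to 8.3 and 7.0 CPM in 786-O, and to 39.8 to 40.8 CPM in the controls and 39.9 to 42.4 CPM in the inhibitor libraries of ACHN, and their part in the histone values was not tested.

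The histone genes accounted for 0.227% to 0.549% of all gene counts. In control cells their summed level was 5074, 4902 and 5147 CPM in ACHN, 3977 and 3772 CPM in A-498, and 3611 CPM in 786-O. Control ACHN libraries were thus all above the control libraries of the other lines, a comparison of cell lines that was not tested here. Per kilobase of the canonical annotated transcript, the classes came in the same order in 12 of 12 libraries: H2B highest, then H4, H2A, H1 and H3. In the 786-O control, for example, the summed levels per kilobase were 2468 CPM for H2B, 1275 for H4, 1194 for H2A, 989 for H1 and 841 for H3, where the H3 sum lacks the unmatched H3C2 and H3C3 and the H2A sum lacks H2AC18 and H2AC19. Among single genes, the highest levels per kilobase, averaged over the 12 libraries, were those of H1-2 with 503 CPM, H4C2 with 368 CPM, H1-4 with 335 CPM, H4C3 with 327 CPM and H4C4 with 320 CPM. This average gives most weight to ACHN, which has 6 of the 12 libraries, and the order differed by line: 786-O was led by H2BC4 with 365 CPM per kilobase and H1-2 with 348, and A-498 by H1-2 with 479, H4C2 with 303 and H4C5 with 251.

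**Figure D1:**
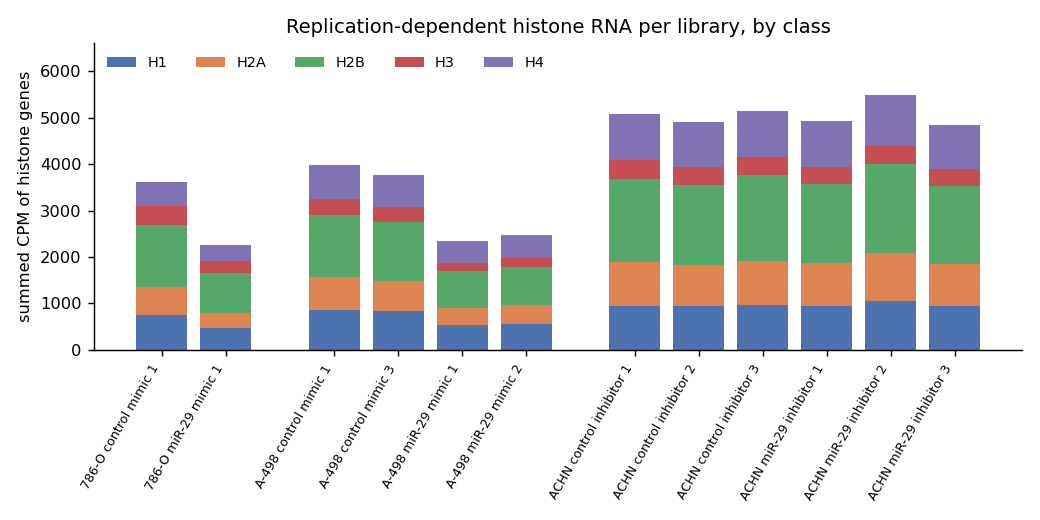
Summed CPM of the 65 histone genes in each of the 12 libraries, stacked by class (H1, H2A, H2B, H3, H4), with the vertical axis starting at 0. Mimic libraries of 786-O and A-498 reach 2269 to 2477 CPM against 3611 to 3977 CPM in their controls, and ACHN libraries of both groups lie between 4844 and 5494 CPM.

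Which histone genes supplied this RNA depended on the cell line. In ACHN 52 members had a mean of at least 1 CPM, compared with 50 in 786-O and 49 in A-498. In all 3 lines 44 members reached this level, and 10 members reached it in no line. Of 49 members at 10 CPM or more in the controls of at least 1 line, 33 differed by less than 4-fold between the highest and the lowest line, and 9 differed by more than 10-fold. These differences compare single control libraries of 786-O with 2 of A-498 and 3 of ACHN, and carry no test.

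H1-5, a linker histone, had 178 CPM in the 786-O control and 129 CPM in the 786-O mimic library. In A-498 it had 0 counts in 3 libraries and 1 count in the other, and in ACHN it had 0 counts in all 6. Against the floor of 3 counts in the pooled ACHN controls (0.0230 CPM), H1-5 was at least 7724-fold higher in control 786-O. The remaining H1 genes present at over 40 CPM in every library were H1-2, H1-3 and H1-4, whereas H1-1 stayed under 1 CPM.

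H3C12 had 112 CPM in control 786-O, 54.5 and 52.6 CPM in control A-498, and 0.0823, 0.0478 and 0.175 CPM in control ACHN. H3C8 had 94.3 CPM in control 786-O, 0.361 and 0.431 CPM in control A-498, and 10.8 to 11.2 CPM in control ACHN. H4C9 had 43.1 CPM in control 786-O and at most 0.350 CPM in any library of the other lines. These 3 genes were therefore highest in 786-O, and the lowest line differed between H3C12 (ACHN) and H3C8 (A-498).

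The reverse was seen at the separate pair of genes on chromosome 1. H2BC26 and H2AC25 had 0 counts in both 786-O libraries, whereas in control ACHN H2BC26 had 26.9 to 28.0 CPM and H2AC25 had 8.79 to 11.05 CPM. Control A-498 lay between them, with 5.22 and 5.43 CPM for H2BC26 and 2.58 and 2.40 CPM for H2AC25. In control ACHN, H2BC26 was at least 412-fold and H2AC25 at least 150-fold higher than the floor of 3 counts in control 786-O (0.0668 CPM). The spans of both H2BC26 and H2AC25 overlap another annotated gene on their strand, and reads in any exon shared with it were not counted.

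H2BC3 and H2BC14 marked A-498. H2BC3 had 59.7 and 60.8 CPM in control A-498, 2.27 CPM in control 786-O and 1.86 to 2.16 CPM in control ACHN. H2BC14 had 89.5 and 82.0 CPM in control A-498, 14.3 to 15.5 CPM in control ACHN and 1.47 CPM in control 786-O.

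**Figure D2:**
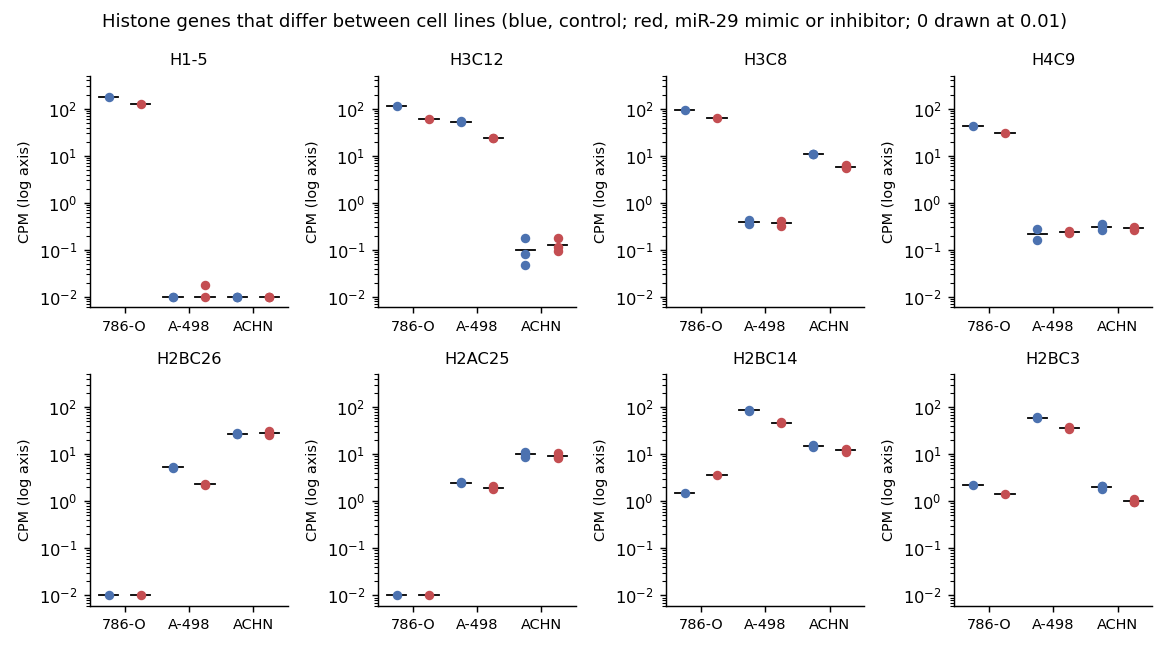
CPM, on a log axis, of 8 histone genes in each library of 786-O, A-498 and ACHN, with controls in blue, miR-29 mimic or inhibitor in red, bars at the group mean and values of 0 drawn at 0.01. H1-5, H3C8, H4C9 and H3C12 are highest in 786-O, H2BC26 and H2AC25 are at 0 in 786-O, and H2BC14 and H2BC3 are highest in A-498.

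In A-498 the histone genes fell together with the miR-29 mimic. Their summed level was 3977 and 3772 CPM with the control mimic and 2353 and 2477 CPM with the miR-29 mimic, so that the groups did not overlap and the mean was 37.7% lower (3875 ± 145 against 2415 ± 88.0 CPM, SD, n = 2 per group). Of 54 members tested with edgeR's quasi-likelihood test, 49 were lower at an adjusted p under 0.05 (Benjamini-Hochberg over 19676 genes), against 27.0% of all genes tested. None was higher (0 of 54, also at an unadjusted p under 0.05 and with DESeq2), against 25.5% of all genes. The median log2 fold change of the 54 members was −0.85, beside 0.00 for all genes tested, and single members ranged from −1.28 to 0.015. In RNA from bulk cultures, fewer cells in S phase and less histone RNA per cell cannot be told apart. The 11 members that were not tested had too few counts. Among them, the spans of H2AC7, H3C4 and H2AC17 overlap another annotated gene on their strand. Reads in shared exons were not counted, so their low counts do not show that these genes were silent.

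By class, 3 of 3 H1, 12 of 12 H2A, 18 of 18 H2B, 6 of 9 H3 and 10 of 12 H4 genes tested were lower in A-498. The summed level was lower with the mimic by 36.1% for H1, 42.3% for H2A, 38.7% for H2B, 46.0% for H3 and 29.2% for H4. H4 thus made up 18.2% of histone counts in both control libraries and 20.9% and 20.5% in the mimic libraries, whereas H3 went from 8.61% and 8.57% to 7.22% and 7.65%.

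Among the linker histones of A-498, H1-2 had 428 and 408 CPM with the control mimic and 281 and 284 CPM with the miR-29 mimic (log2 fold change −0.64, SE 0.037, adjusted p = 3.64e-09). H1-3 fell further, from 206 and 202 CPM to 95.3 and 99.7 CPM (log2 −1.14, SE 0.040, adjusted p = 2.17e-11). H1-4 fell from 235 and 223 CPM to 159 and 169 CPM (log2 −0.56, adjusted p = 5.67e-08). In each of these genes both mimic libraries were below both controls.

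Among the core histones of A-498, H2AC21 had 46.6 and 44.2 CPM with the control mimic and 20.4 and 22.7 CPM with the miR-29 mimic (log2 −1.15, adjusted p = 1.67e-09). H2BC21, whose annotated transcript continues past the stem-loop, had 106 and 96.8 CPM against 49.1 and 48.0 CPM (log2 −1.14, adjusted p = 2.94e-10). The most abundant H2A and H2B genes fell less: H2AC6 by 0.63, H2AC8 by 0.81, H2AC11 by 0.93, H2BC5 by 0.63, H2BC4 by 0.53 and H2BC12 by 0.39 on the log2 scale. H2BC8, whose octamer is shown above and also lies in the promoter window of H2AC8, had 124 and 119 CPM against 68.3 and 72.6 CPM (log2 −0.86, adjusted p = 1.38e-09). H2BC26 had the largest fall of the members, from 5.22 and 5.43 CPM to 2.38 and 2.24 CPM (log2 −1.28, SE 0.12, adjusted p = 4e-07).

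H3C12 had 54.5 and 52.6 CPM with the control mimic of A-498 and 23.8 and 24.1 CPM with the miR-29 mimic (log2 −1.24, adjusted p = 1.45e-10). H3C10 fell by 1.11, H3C7 by 0.96 and H3C1 by 0.66 on the log2 scale. H4C2 had 155 and 144 CPM against 88.1 and 82.7 CPM (log2 −0.88, adjusted p = 1.99e-09). H4C4 fell by 0.63 and H4C3 by 0.42 on the log2 scale, and H4C14, all of whose windows occur elsewhere, by 1.21 from 1.66 to 0.761 CPM (group means).

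The 5 members tested in A-498 that did not pass the threshold were H3C6, H3C8, H3C15, H4C9 and H4C16. They are named because they are the exceptions. H3C8, H3C15 and H4C9 were under 1 CPM. H3C6 had 11.2 and 10.2 CPM with the control mimic and 10.5 and 10.97 CPM with the miR-29 mimic, and H4C16, the H4 gene on chromosome 12, had 33.6 and 29.1 CPM against 28.6 and 30.7 CPM. In both genes the groups overlapped. H4C5 was close to them, chosen here after its values were seen: it fell by 0.23 on the log2 scale, from 113 and 105 CPM to 94.8 and 101 CPM (SE 0.047, adjusted p = 0.000776).

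Features that the rule did not use gave small differences between members in A-498. The 16 members tested that have more than 1 annotated transcript had a median log2 fold change of −0.69, and the 38 with 1 annotated transcript had −0.87. The former ranged from −1.28 to −0.08 and the latter from −1.25 to 0.015. Among the former were H3C6, H4C16 and H2BC4, with small falls. H2BC26 (−1.28), H3C12 (−1.24) and H4C14 (−1.21), with large falls, also belong to the former. H2BC12 and H4C5 belong to the latter. Among members tested whose promoter was matched, those with an octamer had a median of −0.89 (n = 21, all lower). Those without had −0.77 (n = 28, 23 lower). Octamers lie mostly in H2A and H2B promoters, and all H2A and H2B genes tested were lower, so octamer and class cannot be told apart here. The 9 members with over 50% of shared windows had a median of −0.97 and the other 45 had −0.81. These are descriptions of one fit, and the differences were not tested.

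**Figure D3:**
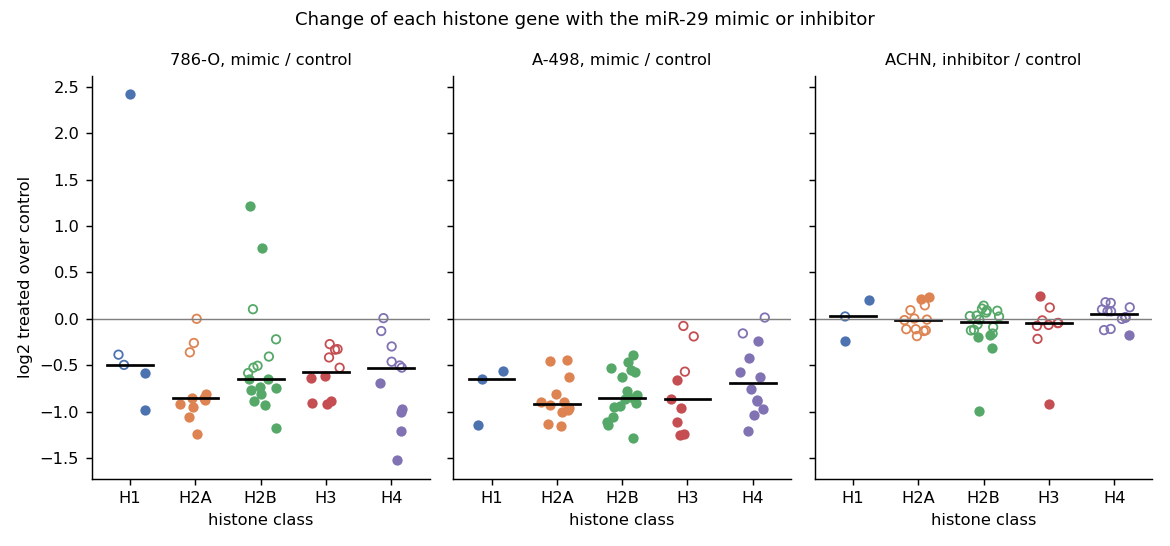
Log2 change of each histone gene with the mimic (786-O, A-498) or the inhibitor (ACHN), by class, with filled points for members past 1.5-fold (786-O) or called at an adjusted p under 0.05 (A-498, ACHN), open points for the others and bars at the median. Nearly all points of A-498 and most of 786-O lie below 0, whereas those of ACHN lie on both sides of 0.

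In 786-O the summed level was 3611 CPM with the control mimic and 2269 CPM with the miR-29 mimic, 37.2% lower. With 1 library per group this difference has no replicate check, and members are described by the log2 ratio of CPM with no p-value. Of 54 members with at least 10 counts in both libraries together, 29 were lower by at least 1.5-fold, against 19.2% of all genes. Another 3 were higher by 1.5-fold, against 15.4% of all genes, and the median log2 ratio was −0.62, beside −0.015 for all genes. All 40 members with a mean of at least 10 CPM had a ratio below 0, from −1.23 to −0.22. By class, the summed level was lower by 37.2% for H1, 45.5% for H2A, 35.6% for H2B, 37.0% for H3 and 31.6% for H4.

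In 786-O, H1-2 had 335 CPM with the control mimic and 174 CPM with the miR-29 mimic. H2AC11 went from 141 to 61.4 CPM (log2 ratio −1.23), H4C2 from 119 to 61.9 CPM and H3C12 from 112 to 61.6 CPM. H4C11, whose sequence is largely shared with H4C12, had the lowest ratio, −1.52, from 86 and 29 counts. H4C16 was at 19.7 and 8.74 CPM in 786-O, a log2 ratio of −1.20.

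The 3 members that were higher in 786-O were all scarce there. H2BC14 had 66 counts with the control mimic and 158 with the miR-29 mimic (log2 ratio 1.22), H1-1 had 3 and 25 counts, and H2BC12L had 5 and 10 counts. Requiring at least 50 counts left H2BC14 as the 1 higher member and the same count of 29 lower members. At a threshold of 2-fold, 6 members were lower.

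The mimic effects of 786-O and A-498 were compared directly as an interaction in edgeR. Of 57 members in this fit, 19 differed at an adjusted p under 0.05, against 29.6% of all genes, which is near the share among the members. The fall was smaller in 786-O, or turned into a higher level, in 16 of them and larger in 3 (H1-2, H2BC12 and H4C16). For H1-3 the log2 difference was 0.81 (SE 0.079, adjusted p = 1.36e-07), with 55.5 and 43.5 CPM in 786-O beside the fall in A-498 given above. For H2AC21, with 23.5 and 20.1 CPM in 786-O, it was 0.95 (adjusted p = 2.98e-06), and for H2BC14 it was 2.25 (adjusted p = 9.93e-08). For H4C16 it was −0.997 (adjusted p = 1.73e-05). Since 786-O has no replicates, the error was estimated from the A-498 libraries, and with a biological coefficient of variation fixed at 0.2 only 1 member, H2BC14, remained (adjusted p = 0.00813).

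**Figure D4:**
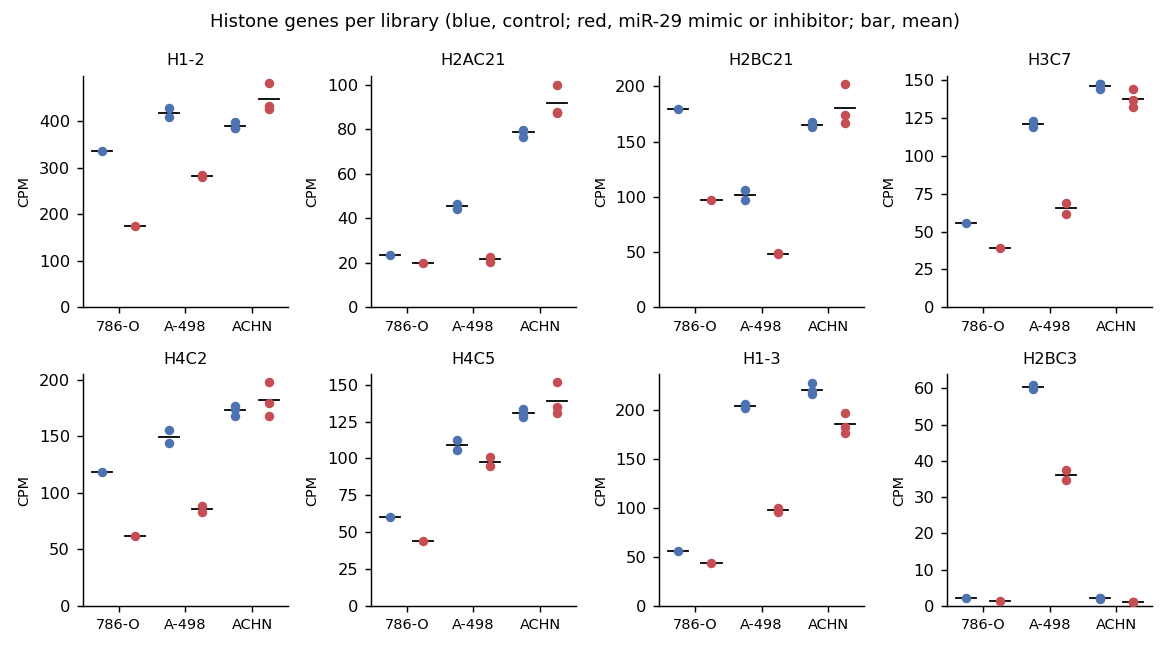
CPM of 8 histone genes in each library, with controls in blue, miR-29 mimic or inhibitor in red, bars at the group mean and each vertical axis starting at 0. In A-498 the mimic libraries are below the controls in all 8 genes, least so in H4C5, and in ACHN H1-2 and H2AC21 are above and H1-3 and H2BC3 below their controls with the inhibitor.

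In ACHN few histone genes passed the test with the inhibitor, and they went in both directions. The summed level was 5074, 4902 and 5147 CPM with the control inhibitor and 4921, 5494 and 4844 CPM with the miR-29 inhibitor (5041 ± 126 against 5086 ± 355 CPM, SD, n = 3 per group). The inhibitor libraries lay on both sides of the controls. Of 54 members tested, 7 were lower, against 14.4% of all genes tested in ACHN, and 4 were higher, against 17.3% of all genes (edgeR quasi-likelihood test, adjusted p under 0.05 over 17904 genes). The median log2 fold change was −0.01, beside 0.00 for all genes.

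Inhibitor replicate 2 stood apart in ACHN: it had the highest histone sum and the lowest share of reads of low alignment quality (16.7%, against 17.99% or more in the other ACHN libraries), and the part of that share in the histone values was not tested. Without it, 19 members were lower and 4 higher, and the median was −0.06. The 19 contained all 7 members called with every library. Without inhibitor replicate 3, 6 were lower and 8 higher, and the median was 0.03. The size and the balance of the ACHN calls therefore changed with single libraries. The shares of all genes given above belong to the fit on every library. No such share is given for the fits without a library, so their counts are not a result about the histone genes alone.

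The 7 lower members of ACHN were H1-3, H2BC3, H2BC10, H2BC14, H2BC18, H3C8 and H4C1. H2BC3 had 2.16, 1.86 and 2.08 CPM with the control inhibitor and 0.969, 1.15 and 0.957 CPM with the miR-29 inhibitor (log2 −0.99, SE 0.15, adjusted p = 6.22e-05). H3C8 had 10.8, 11.2 and 11.1 CPM against 5.66, 6.26 and 5.47 CPM (log2 −0.92, SE 0.080, adjusted p = 7.31e-08). These 2 were the only members that changed by more than 1.5-fold in ACHN. H2BC14 fell by 0.31, H1-3 by 0.24, H2BC10 by 0.20, H2BC18 by 0.17 and H4C1 by 0.17 on the log2 scale.

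H1-3 in ACHN had 216, 219 and 227 CPM with the control inhibitor and 177, 197 and 182 CPM with the miR-29 inhibitor (adjusted p = 0.000478), and the groups did not overlap. H4C1 had 55.9, 57.5 and 60.05 CPM against 48.1, 57.7 and 47.0 CPM (adjusted p = 0.0331), and here the groups overlapped through inhibitor replicate 2. The call of H4C1 was lost without control replicate 2 or 3 or inhibitor replicate 1 or 3, and that of H2BC18 without inhibitor replicate 1.

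The 4 higher members of ACHN were H1-2, H2AC20, H2AC21 and H3C6. H1-2 had 385, 385 and 397 CPM with the control inhibitor and 432, 481 and 425 CPM with the miR-29 inhibitor (log2 0.21, SE 0.044, adjusted p = 0.00116). H2AC21 had 79.2, 76.7 and 79.9 CPM against 87.7, 100.04 and 87.2 CPM (log2 0.23, adjusted p = 0.00226), and H2AC20 rose by a log2 of 0.21 (adjusted p = 0.00636). For H3C6 (10.8, 9.39 and 11.8 CPM against 13.0, 12.2 and 12.5 CPM, log2 0.25, adjusted p = 0.0264) the call was lost without control replicate 1 or 2 or inhibitor replicate 1 or 3, with adjusted p from 0.0545 to 0.199.

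Called in both A-498 and ACHN were 9 members. H1-2, H2AC20 and H2AC21 were lower with the mimic in A-498 and higher with the inhibitor in ACHN, 3 of 53 members tested in both lines, against 10.5% of all 16708 genes tested in both. H1-3, H2BC3, H2BC10, H2BC14, H2BC18 and H4C1 were lower in both, 6 of 53 members, against 2.56% of all genes. Since 49 of 54 members were lower in A-498, this count depends mostly on the ACHN calls. There 7 of 54 members were lower, against 14.4% of all genes tested, so the 6 are not a separate result. H2AC20 stands head to head with H2BC21, which in ACHN had 163, 164 and 168 CPM with the control inhibitor and 174, 202 and 167 CPM with the miR-29 inhibitor (log2 0.14, adjusted p = 0.0575).

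Other genes whose products make, process or use histone mRNA and protein were counted from lists of known factors. Of 11 factors of histone transcription, 6 were lower and 1 higher in A-498, and 4 were lower and 2 higher in ACHN, where 14.4% of all genes were lower and 17.3% higher (27.0% and 25.5% in A-498). NPAT, the coactivator that switches histone genes on in S phase, had 29.9 and 32.3 CPM with the control mimic of A-498 and 29.2 and 29.0 CPM with the miR-29 mimic (log2 −0.17, adjusted p = 0.023). CDK2, the kinase that activates NPAT, had 89.4 and 92.4 CPM against 49.6 and 49.2 CPM in A-498 (log2 −0.96, adjusted p = 4.42e-10). In ACHN CDK2 had 150, 153 and 162 CPM with the control inhibitor and 171, 173 and 176 CPM with the miR-29 inhibitor (log2 0.18, adjusted p = 0.00502), and in 786-O it had 53.5 and 36.5 CPM. CCNA2, the cyclin A partner of CDK2, had a log2 fold change of −0.92 with the mimic in A-498 (adjusted p = 6.86e-10). With the inhibitor in ACHN it was 0.13 (adjusted p = 0.0346). CCNE1, encoding cyclin E1, fell in both, by 0.40 in A-498 and 0.36 in ACHN.

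Among 17 genes for 3′ end processing and decay of histone mRNA, 5 were lower and 9 higher in A-498, whereas 10 were lower and 2 higher in ACHN. The shares of all genes just given apply to this list and to those that follow, and the 5 lower genes of A-498 are near the share of all genes. LSM11, a protein found in the U7 snRNP and needed for cleavage of histone precursors, had 14.7 and 15.1 CPM with the control mimic of A-498 and 7.40 and 7.11 CPM with the miR-29 mimic (log2 −1.12, SE 0.077, adjusted p = 2.34e-08). In ACHN LSM11 had 17.2, 18.2 and 17.1 CPM with the control inhibitor and 36.1, 36.7 and 37.7 CPM with the miR-29 inhibitor (log2 1.09, SE 0.052, adjusted p = 2.71e-11). In 786-O it had 13.2 and 9.55 CPM. The groups of LSM11 were well apart in A-498 and ACHN, and the direction was opposite between mimic and inhibitor. The histone genes fell in A-498 and had a median near 0 in ACHN. A link between LSM11 and the histone genes was not tested, and agent and cell line cannot be told apart here. CTIF, a translation factor of the cap-binding complex that acts with SLBP, was called in the same directions as LSM11. Its log2 was −0.54 in A-498 (adjusted p = 2.99e-05) and 0.91 in ACHN (adjusted p = 1.9e-09). In 786-O, however, CTIF had 15.9 CPM with the control mimic and 20.2 CPM with the miR-29 mimic (log2 ratio 0.31).

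LSM11 is shown with its sequence because its annotated transcript holds 2 matches to the miR-29 seed after the stop codon, each followed by A. Of 56 genes searched on the histone lists, 10 held at least 1 match after the stop codon, against 14.1% of 19481 protein-coding genes of all lengths. CDK2 and CCNA2 held 1 each, and CPSF2 and NASP held 2 each. CTIF, called in the same directions as LSM11, held none in 3658 bases. CPSF2 went opposite to LSM11, with log2 0.27 in A-498 and −0.16 in ACHN (edgeR, adjusted p = 3.78e-05 and 0.0104). NASP had log2 −0.45 in A-498 and −0.03 in ACHN. HINFP, with 1 match followed by A, had log2 0.17 in A-498 and 0.11 in ACHN, and neither was called. Among 1624 protein-coding genes with 4000 to 7000 bases after the stop codon, the range that includes LSM11 (5445 bases), 8.25% held at least 2 matches and 0.86% held at least 2 followed by A. A match is a description and not a site. The matches are in capitals (GRCh38).
LSM11, chr5:157756014-157756039, plus strand: tctgtggcaTGGTGCTagtgcatgta
LSM11, chr5:157759507-157759532, plus strand: agctgtcacTGGTGCTaccccaaagc
CDK2, chr12:55972042-55972067, plus strand: gggctaagtTGGTGCTtttgagaacc

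SLBP, the stem-loop binding protein, had 85.5 and 83.5 CPM with the control mimic of A-498 and 77.9 and 75.7 CPM with the miR-29 mimic (log2 −0.21, adjusted p = 0.000828). In ACHN it had 101, 95.1 and 103 CPM against 69.9, 71.1 and 75.1 CPM (log2 −0.45, adjusted p = 1.17e-06). SLBP therefore fell more in the line whose histone median was near 0, a difference between lines and agents that was not tested. In 786-O it had 75.4 and 87.2 CPM.

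S-phase genes, which peak with the histones in the cell cycle, were set beside them, with SLBP, CHAF1A and CHAF1B on this list as well as on another. Of 32 S-phase genes, 25 were lower and 1 higher in A-498 (median log2 −0.37), and 24 were lower and 1 higher in ACHN (median −0.29). In 786-O 3 were lower and 5 higher by 1.5-fold (median 0.15), against 19.2% and 15.4% of all genes, and the 5 are near that share. Their summed level went from 3270 and 3203 CPM to 2629 and 2640 CPM in A-498, from 3334, 3263 and 3440 CPM to 2654, 2757 and 2752 CPM in ACHN, and from 2515 to 2877 CPM in 786-O. In ACHN the groups of the S-phase sum did not overlap while those of the histone sum did. In 786-O the S-phase sum was higher in the library in which the histone sum was lower. A link between the S-phase and histone sums was not tested. MCM6, a subunit of the replicative helicase, fell in A-498 (log2 −0.64) and in ACHN (log2 −0.69), and GINS2, a helicase partner, fell by 1.85 in A-498 and 0.16 in ACHN.

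Mitosis genes also had a higher sum in the 786-O mimic library than in its control. Of 18, 10 were lower and 3 higher in A-498, and 12 were lower and none higher in ACHN (edgeR, 0 of 18, where all 18 had a log2 fold change below 0). In 786-O 1 was lower and 9 higher by 1.5-fold, against 19.2% and 15.4% of all genes. Their summed level was 3564 CPM with the control mimic and 5445 CPM with the miR-29 mimic in 786-O.

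**Figure D5:**
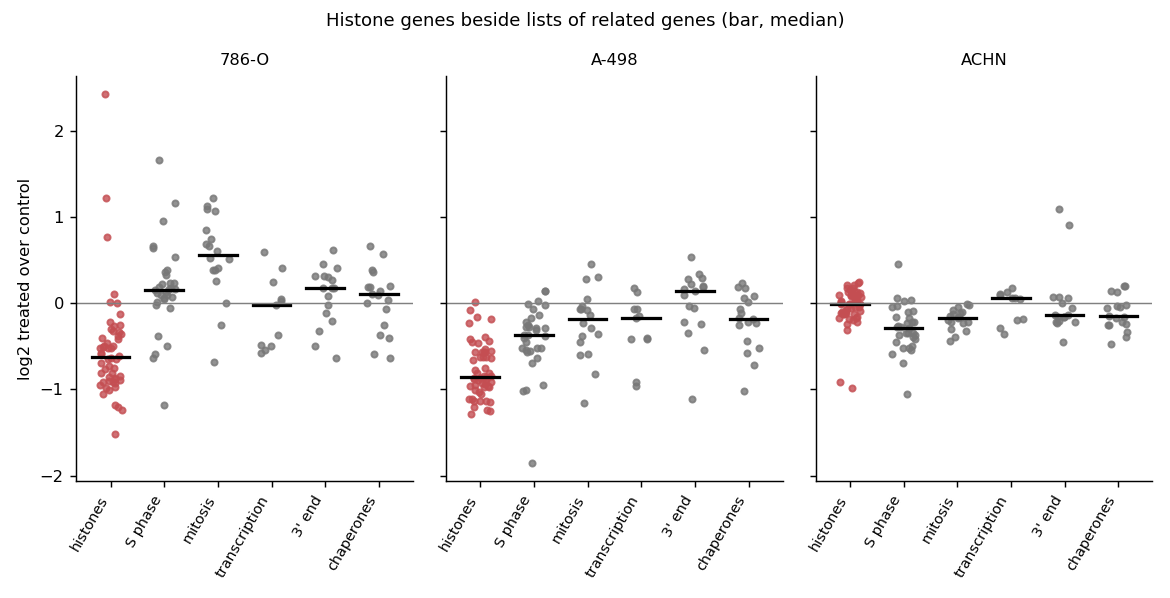
Log2 change of single genes of 6 lists (histone genes in red; S phase, mitosis, histone transcription, 3′ end processing and decay, and histone chaperones in grey) in 786-O, A-498 and ACHN, with bars at the median. The histone median is −0.62, −0.85 and −0.01 in the 3 lines, and the S-phase median is 0.15, −0.37 and −0.29.

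Histone variants and other histone genes outside the replication-dependent families were mixed. In A-498 6 of 9 tested were lower and none was higher by edgeR (0 of 9, although H2AZ1 and H3-3B had log2 values of 0.07 and 0.08), with a median of −0.39. In ACHN 2 of 11 were lower and 5 higher. H2AZ2 fell by 0.68 and H3-3A by 0.61 in A-498.

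Of 18 histone chaperones and their partners, 11 were lower and 3 higher in A-498, and 8 were lower and 2 higher in ACHN. CHAF1A, the large subunit of the chromatin assembly factor, fell by 1.02 on the log2 scale in A-498 (adjusted p = 3.69e-09). HAT1, which acetylates new H4, fell by 0.71 there. In ACHN neither passed the threshold (log2 −0.05 for CHAF1A and −0.06 for HAT1). NASP, a carrier of H1 and H3–H4, fell by 0.45 in A-498 and had a log2 of −0.03 in ACHN.

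Other RNAs without poly(A) tails were set beside the histone genes. They cannot decide whether the share of such RNA differed between libraries, because most of the list could not be counted. RN7SK, RN7SL1, RMRP, RPPH1, RNU12 and SCARNA2 had 0 CPM in every library. Of 14 on the list, 6 were tested in A-498, with 1 lower and 1 higher (median log2 0.03), and 6 in ACHN, with 0 lower and 3 higher (median 0.23). RN7SL2, a signal recognition particle RNA with near-identical copies and therefore an uncertain count, rose by 0.16 in A-498 and 0.25 in ACHN, and SCARNA7, a small Cajal body RNA, had log2 values of 0.05 and 0.30. In 786-O none of the 5 with enough counts passed 1.5-fold, and their median log2 ratio was −0.26.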

How the data were processed

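The authors depleted rRNA, made stranded paired-end libraries, aligned reads to GRCh38 with HISAT2 and deposited raw counts per Ensembl 87 gene from HTSeq-count in its strict intersection mode, with no normalisation. Reads that fit several positions or several genes on a strand were not counted. The authors' DESeq2 tables hold fold changes and p-values and were not used. Symbols came from GENCODE 44, which matched 56948 of 58051 identifiers (98.1%). Samples were grouped by their labels.

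CPM were scaled to the gene counts of each library. Counts of A-498 and ACHN were tested within each line by edgeR 4.0.16 (quasi-likelihood, TMM, filterByExpr by group, no block) in R 4.3.3, with Benjamini-Hochberg adjustment over all genes tested; calls had an adjusted p under 0.05. Estimated biological coefficients of variation were 3.83% (A-498) and 5.25% (ACHN). 786-O was described by log2 ratios (TMM, prior count 2, at least 10 counts in the pair, 1.5-fold). The interaction was fitted on the 6 mimic and control mimic libraries. Replicate libraries differed by more than sampling noise (chi-square over degrees of freedom, 3.87 to 12.2). P-values measure the spread between these cultures, and floors (3 counts) cover counting error only, as no molecular identifiers were described. The script was tested on simulated data. Sequences were read from GRCh38 by the canonical transcript of GENCODE 44.

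Members, lists and tests were chosen with earlier results of these data known. Genes named were the 3 most abundant members of each class, the 5 called members of A-498 and of ACHN and the 3 members of 786-O with the largest change at a mean of at least 1 CPM, and members called in both lines; others are named as exceptions or for their level between lines, after their values were seen. Alternatives were library size, DESeq2 1.42.0, no filter, scaling by protein-coding genes other than histones, an adjusted p of 0.01, leaving out each replicate, the replicate block, a prior count of 0.5, 50 counts and 2-fold in 786-O, and a fixed coefficient of variation.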

Additional observations from a re-analysis of the deposited data

Results flagged for a closer look

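For 10 named histone genes the interaction test of edgeR called a difference in the response to the mimic between 786-O and A-498. Each difference is given as the log2 effect in 786-O minus that in A-498. In this test 19 of 57 members were called, near the share of 29.6% among all genes. The count of calls is therefore not a result about the histone genes. The fall was larger in 786-O for H1-2 (−0.28) and H2BC12 (−0.20). It was smaller in 786-O for H2BC21 (0.27), H3C1 (0.39), H4C4 (0.39), H3C12 (0.39), H3C7 (0.49), H1-3 (0.81) and H2AC21 (0.95). For H2BC14 the difference was 2.25, because its level was higher with the mimic in 786-O and lower in A-498. Each 786-O value rests on 1 library per group, and with a biological coefficient of variation fixed at 0.2 the adjusted p was 0.00813 for H2BC14 and 0.523 or more for the other 9.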

How the results depend on the processing

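In A-498 the count of lower histone genes stayed between 46 and 50 under every alternative run, and none was higher. The A-498 median was −0.78 with library size in place of TMM and −0.92 to −0.78 when single replicates were left out. In ACHN, leaving out single replicates gave 5 to 19 lower members, 3 to 8 higher members and a median from −0.060 to 0.030. Leaving out inhibitor replicate 2 gave the 19 and leaving out inhibitor replicate 3 the 8. Without a filter on low counts 9 were higher. No share of all genes is given beside these counts. The replicate block in ACHN gave 7 lower and 5 higher members, against 7 and 4 without it. Same-numbered ACHN libraries did not deviate together (correlations 0.042, −0.051 and −0.0049), so the numbers were not taken as pairs. In A-498 and 786-O no paired analysis was possible, because the A-498 groups share only replicate 1 and 786-O has 1 library per group. In 786-O, 2-fold in place of 1.5-fold left 6 lower members and a minimum of 50 counts left 1 higher member. The interaction gave 1 member with a biological coefficient of variation fixed at 0.2 (a larger assumed spread), and 14 to 27 when A-498 replicates were left out. Against library size, the median of all genes moved by 0.076 in A-498 and by less in the other lines. Members under 1 CPM and those that share sequence are limited by depth and by uncounted reads.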

Other observations

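Across the 45 histone genes with at least 1 CPM in the controls of both lines, the log2 ratio of 786-O and the log2 fold change of A-498 had a Spearman correlation of 0.25 and a Pearson correlation of 0.13. For ACHN and A-498 the values over 48 members were 0.01 and 0.07. The points of a line share their libraries and scaling, and these are descriptions with no test. Low-count members varied most in 786-O: the 14 members under 10 CPM ranged from −1.52 to 2.42, whereas the 40 others ranged from −1.23 to −0.22.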
